A study of Mus musculus with 20 samples.

Results

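Mouse ear skin injected with interleukin-4 (IL-4) was compared with ear skin injected with phosphate-buffered saline (PBS), gene by gene, from the RNA of whole ear pinnae. The members were the 5 IL-4 libraries and the 5 PBS libraries, 10 of the 20 libraries of the study. They were grouped by their labels, but the choice was made with earlier results of these data known. The choice of PBS libraries left out in a further fit below rests on measured values. The IL-4 ears had received 10 µl of recombinant mouse IL-4 at 0.1 µg/µl in PBS, and the PBS ears PBS alone, in both cases intradermally into the right ear. The other 10 libraries came from ears given IL-13 or IL-31 in the same way, 5 each. The sources used here do not give the strain, age and sex of the mice, the volume of PBS, the time from injection to harvest or whether each library came from its own mouse. The p-values therefore measure only how much these libraries vary, which may in part be technical.

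IL-4 is a cytokine of type 2 immunity. It binds a receptor made of the IL-4 receptor alpha chain (Il4ra) with either the common gamma chain (Il2rg) or the IL-13 receptor alpha 1 chain (Il13ra1), and the Janus kinases bound to these chains phosphorylate the transcription factor STAT6, which enters the nucleus and switches on genes such as Retnla. In skin, keratinocytes, fibroblasts, macrophages and sensory neurons carry this receptor, and IL-4 is known for its part in atopic dermatitis, in itch and in the alternative activation of macrophages. A mouse ear pinna also holds cartilage, fat, vessels, nerves and strips of skeletal muscle, all of which enter the RNA.

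The ear tissue was evident in both groups. The keratinocyte keratin Krt14 averaged 13.18 ± 0.17 log2 CPM (counts scaled for library size, on a log2 scale) in IL-4 libraries and 13.13 ± 0.35 in PBS libraries (SD, n = 5 each), and the cartilage gene Acan averaged 6.85 ± 0.33 in IL-4 libraries and 6.97 ± 0.41 in PBS libraries. Effective depth ran from 6.11 to 13.97 M reads (M, reads in units of 1e6) in IL-4 libraries and from 9.11 to 12.97 M reads in PBS libraries, so that 3 reads were worth 0.215 to 0.491 CPM and 0.231 to 0.329 CPM in those groups. Both groups held libraries that stood apart. The cornified envelope genes lay at −0.46, 0.27, 0.08, 0.63 and 0.20 in the IL-4 libraries (mean log2 CPM centred per gene over all 20 libraries), against −0.92, −1.67 and −2.16 in PBS libraries 1, 2 and 3 and 0.02 and 0.49 in PBS libraries 4 and 5. Neutrophil genes were high in IL-4 library 4 (1.75, with the other IL-4 libraries at −1.87 to −1.44) and in PBS libraries 1, 3 and 5 (2.36, 3.49 and 2.97), but low in PBS libraries 2 and 4 (−0.90 and −1.42). Muscle genes separated the groups without overlap, at −2.23 to −0.21 in IL-4 libraries and 0.54 to 2.13 in PBS libraries. Because PBS 1, 2 and 3 stood apart in epidermal genes, each result was computed with all libraries and again with PBS 4 and 5 as the only PBS libraries. Genes that passed in the same direction in both are called retained below. This step keeps the muscle difference (1.08 and 1.24 in PBS 4 and 5) and the high neutrophil genes of PBS 5. PBS 4 and 5 also differed from each other: genes of stressed and wounded keratinocytes lay at −0.71 and 3.49, and at 0.84, −1.28 and 0.37 in PBS 1, 2 and 3.

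**Figure D1:**
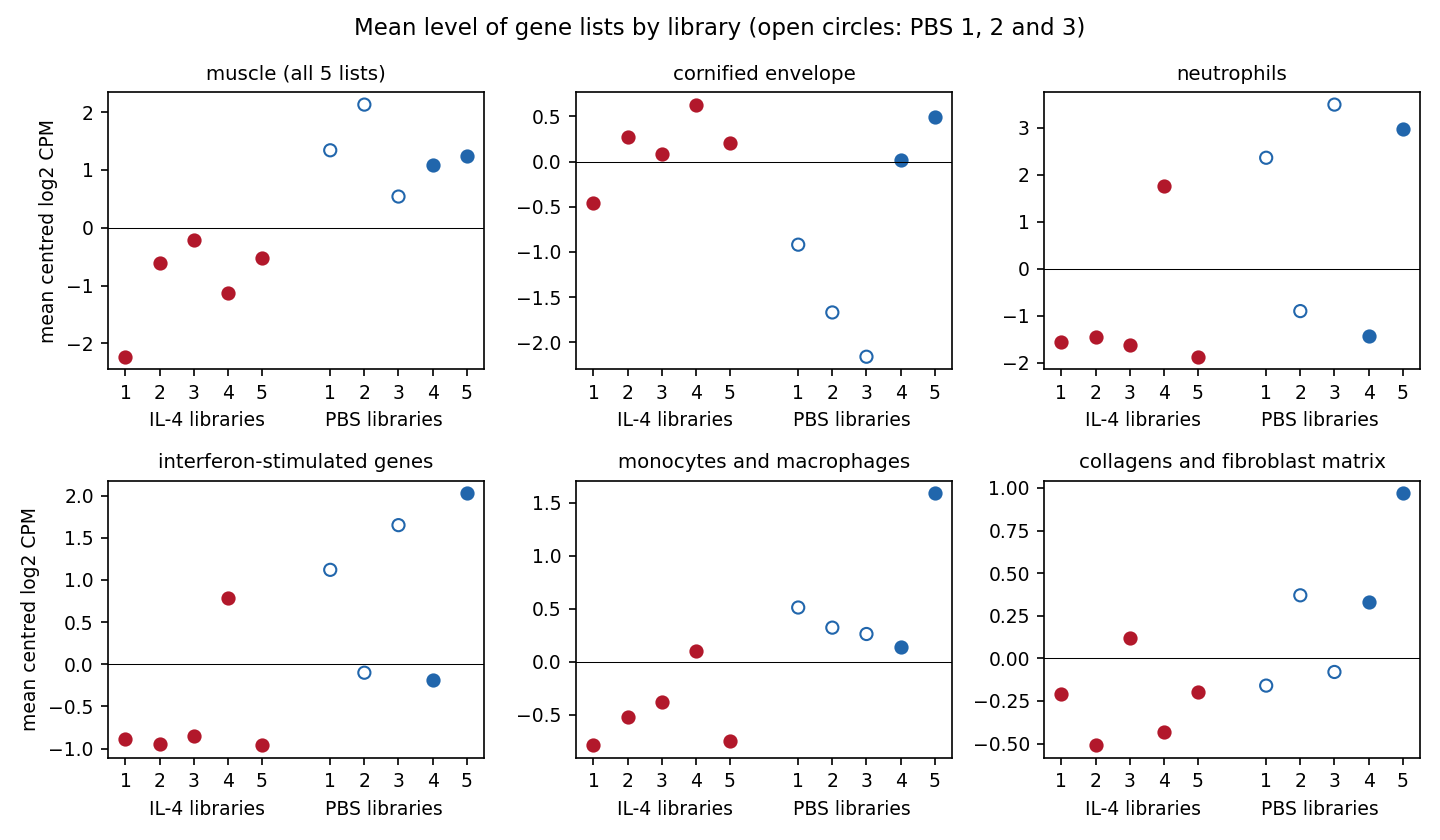
Mean centred log2 CPM of 6 gene lists in each of the 5 IL-4 libraries (red) and 5 PBS libraries (blue); open circles mark PBS libraries 1, 2 and 3. Muscle genes separate the groups, cornified envelope genes are low in the 3 open circles and not in PBS 4 and 5, and neutrophil and interferon-stimulated genes are high in IL-4 library 4 and PBS libraries 1, 3 and 5.

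Of 16461 genes tested, 1353 were higher in IL-4 ears (8.22% of genes tested) and 1585 were lower (9.63%) at a Benjamini-Hochberg adjusted p under 0.05 with limma. With PBS libraries 1, 2 and 3 left out, 433 genes were higher (2.63%) and 767 lower (4.66%). The retained genes numbered 186 higher (1.13%) and 622 lower (3.78%), which is 13.75% of the rises and 39.24% of the falls seen with all libraries. No gene passed in opposite directions in the 2 fits. Among genes that passed with all libraries, the difference without PBS 1, 2 and 3 was a median of 0.52 times the difference with them for the rises and 0.96 times for the falls. Of the 808 retained genes, 639 also passed in every fit that left out 1 of the 10 libraries. With PBS 4 also left out, so that PBS 5 was the only PBS library, 559 of the 808 still passed, and with PBS 5 left out in its place, so that PBS 4 was the only one, none did. In both of these fits the lone PBS library was assumed to vary like the libraries of the other groups. Of the tested genes, 1404 (8.53%) had groups whose values did not overlap, in either direction, and this held for 108 of the retained rises and 459 of the retained falls.

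**Figure D2:**
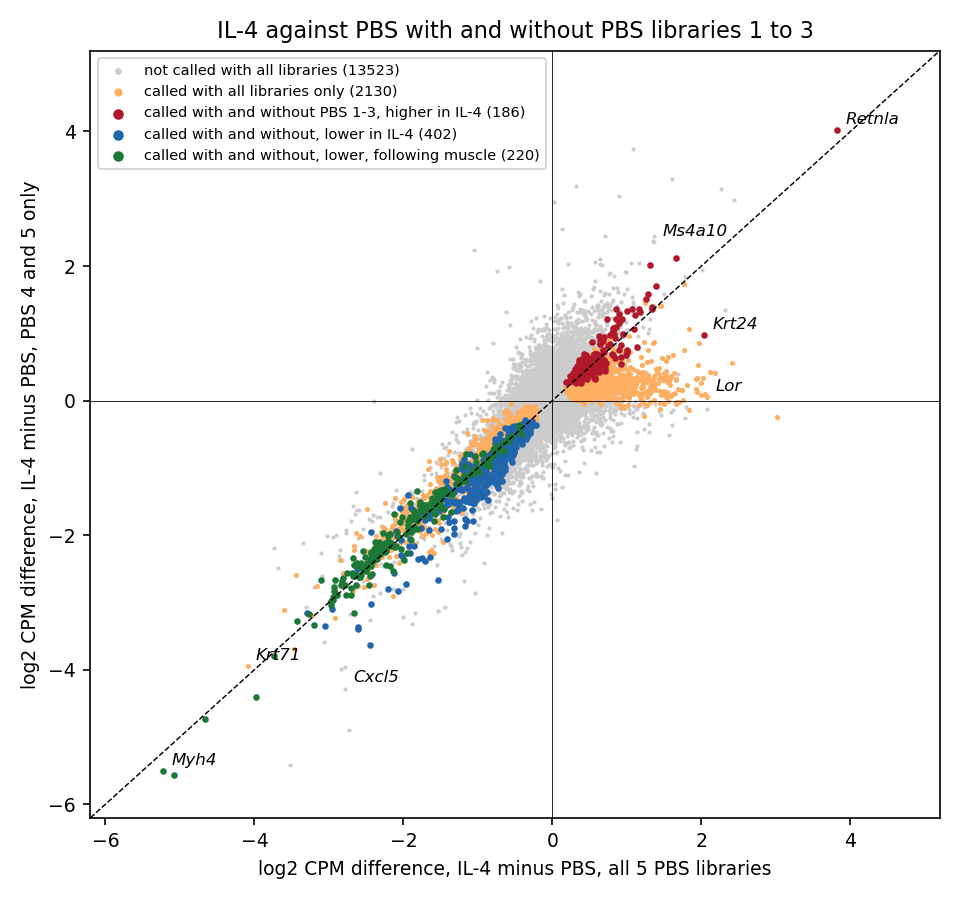
Difference in log2 CPM between IL-4 and PBS for 16461 genes, with all 5 PBS libraries (horizontal axis) and with PBS 4 and 5 only (vertical axis); the dashed line marks equal differences. Lor, which passed only with all libraries (orange), lies near 0 on the vertical axis. Retnla and the retained falls that follow muscle (green) lie near the dashed line. Green marks only genes that passed in both fits, so their place follows in part from that choice.

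The largest retained rise was that of Retnla, which encodes a secreted protein of the resistin family (RELM alpha, also called FIZZ1) made by alternatively activated macrophages and other cells under IL-4. Retnla lies on chromosome 16 at 48842551 to 48844461, plus strand (GRCm38, GENCODE M21). Its level was 1.13, 2.08, 4.18, 3.63 and 4.09 log2 CPM in IL-4 libraries 1 to 5, against −1.41, 1.09, −1.69, 0.05 and −2.05 in PBS libraries 1 to 5. The groups did not overlap, though the lowest IL-4 library and the highest PBS library were nearly equal. The difference was 3.83 ± 0.86 log2 units (SE), or 14.2-fold (limma, adjusted p = 0.00583), and 4.02 ± 1.14 without PBS 1, 2 and 3 (limma, adjusted p = 0.0426). It passed in all 10 fits that left out 1 library. The related gene Retnlg, which neutrophils express, followed the neutrophil genes instead, at −2.68, −1.99, −2.09, 2.39 and −1.65 log2 CPM in IL-4 libraries and 3.21, −0.73, 3.75, −2.04 and 3.01 in PBS libraries, with groups that overlapped and no passing difference (limma, adjusted p = 0.202). The adipocyte gene Retn, resistin itself, did not pass either (limma, adjusted p = 0.459).

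The promoter of Retnla is shown because it was the only one, among the 12 largest retained rises without overlap between the groups, of which 10 had a window in the RefSeq table, to hold the letters TTCNNNNGAA. This is the palindrome with a spacer of 4 bases that STAT6 prefers, searched on both strands, which read the same for it. The window is chr16:48842359-48842658 of GRCm38.p6 on the plus strand, 250 bases before the RefSeq gene start and 50 after it, and the match, in capitals, begins 145 bases before that start.
Retnla: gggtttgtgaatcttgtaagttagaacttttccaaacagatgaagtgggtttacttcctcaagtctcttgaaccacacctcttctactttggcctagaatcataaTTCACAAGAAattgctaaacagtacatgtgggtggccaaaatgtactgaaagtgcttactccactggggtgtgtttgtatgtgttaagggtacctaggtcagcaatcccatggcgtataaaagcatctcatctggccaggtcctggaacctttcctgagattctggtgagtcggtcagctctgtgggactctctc
The same letters occurred in 2284 of 32851 RefSeq promoter windows of this length (6.95%), so a match in 1 of 10 is near the background. No binding was measured in these data.

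Among the other large retained rises, Krt24 was the 1 retained gene of 24 on the cornified envelope list and Elovl4 the 1 of 16 on the epidermal lipid barrier list, while 0 of 17 spinous layer genes were retained (1.13% of all genes were retained rises). Krt24, a keratin of the upper epidermis, measured 9.06, 9.14, 9.08, 8.98 and 9.40 log2 CPM in IL-4 libraries, against 6.67, 5.94, 6.55, 8.45 and 7.86 in PBS libraries. All PBS libraries were lower than every IL-4 library, PBS 1, 2 and 3 by the most, and the difference of 2.04 ± 0.33 (limma, adjusted p = 0.00118) was 0.98 ± 0.22 with PBS 4 and 5 only (limma, adjusted p = 0.0203). Tgm7, a transglutaminase that cross-links proteins, was at 3.51, 3.03, 3.33, 3.27 and 3.60 in IL-4 libraries, against 2.55, 1.72, 2.51, 2.10 and 1.58 in PBS libraries, a difference that was no smaller without PBS 1, 2 and 3 (1.51 ± 0.37, against 1.26 ± 0.29 with all libraries). Calm5, a calmodulin-like protein of differentiating keratinocytes, rose by 1.00 (0.72 without PBS 1, 2 and 3), and Psapl1, a relative of the lysosomal saposins that handle sphingolipids, by 0.93 (0.54). Elovl4, which makes the very long fatty acids of skin ceramides, rose by 0.81 (0.68 without). Abhd12b rose by 0.90 (0.76 without), Hephl1, a copper-containing ferroxidase, by 0.92 (0.65), Tppp, which promotes tubulin polymerization, by 0.92 (0.83), and the lysophospholipase Enpp6 by 1.00 (1.33), the last no longer passing when IL-4 library 5 was left out. H60c, a ligand of the NKG2D receptor expressed by keratinocytes, rose by 1.00 (0.75 without), and Rdh16f1, a member of a retinol dehydrogenase family with near-identical copies whose reads may be split, by 0.99 (0.67).

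Several retained rises had overlapping groups and are named here after their values were seen. The acyl-CoA thioesterase Acot12 rose by 1.66 ± 0.47 with all libraries and by 2.12 without PBS 1, 2 and 3, with 0.04 to 1.48 log2 CPM in IL-4 libraries against −2.05 to 0.76 in PBS libraries, and it was lost when IL-4 library 3 was left out. The sphingosine-1-phosphate phosphatase Sgpp2 rose by 1.34 (1.40 without). The xenobiotic-metabolizing enzyme Cyp1a1 rose by 1.28 (1.59 without), but lost its call in 8 of the 10 fits that left out 1 library. PBS library 3, the PBS library with the highest level of these 3 genes, reached 0.76, 4.50 and 4.43 log2 CPM. The transcription factor Foxq1 (0.77, and 0.97 without) and the aldehyde dehydrogenase Aldh3a1 (0.82, and 1.09 without) separated the groups in full.

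Among genes tied to itch and epithelial alarm signals, 17 of which were tested, 4 were higher in IL-4 ears and 1 lower with all libraries (8.22% and 9.63% of all genes). Of these, 2 rises and 1 fall were retained (1.13% and 3.78% of all genes). The list's median difference was 0.07, against −0.02 over all genes. Il22ra2, the soluble IL-22 binding protein that blocks IL-22, was at 4.03, 4.10, 4.44, 4.27 and 4.36 log2 CPM in IL-4 libraries, against 3.12, 2.94, 2.61, 3.67 and 3.22 in PBS libraries. Every IL-4 library was above every PBS library, the difference was 1.13 ± 0.14 (limma, adjusted p = 0.00051), and it was 0.80 ± 0.14 without PBS 1, 2 and 3 (limma, adjusted p = 0.00929). Il20rb, a receptor chain for IL-20, IL-19 and IL-24 on keratinocytes, averaged 8.35 ± 0.11 in IL-4 libraries and 7.68 ± 0.30 in PBS libraries, and its difference of 0.68 was retained (0.57 without). Il1rl1, the receptor of the alarmin IL-33, fell by 1.65 ± 0.40 (1.93 without).

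Of 18 tested receptor and signalling genes of the IL-4 pathway itself, 1 passed with all libraries, as a fall, while 8.22% of all genes rose and 9.63% fell. The list's median difference was −0.12 with all libraries and −0.16 without PBS 1, 2 and 3. Il4ra was at 4.59, 4.34, 4.75, 4.76 and 4.33 log2 CPM in IL-4 libraries, against 5.25, 4.13, 4.79, 4.47 and 6.86 in PBS libraries (limma, adjusted p = 0.349), with PBS library 5 far above all others. Stat6 averaged 6.81 ± 0.10 in IL-4 libraries and 6.66 ± 0.15 in PBS libraries (limma, adjusted p = 0.256). Il13ra1, Il2rg, the kinases Jak1 and Tyk2 and the feedback inhibitors Socs1, Socs3 and Cish did not pass, with differences from −0.73 for Socs3 to 0.35 for Il13ra1. The exception was Jak3, the kinase bound to the common gamma chain in lymphoid and myeloid cells. Jak3 was at 3.20, 2.60, 3.28, 2.72 and 2.71 in IL-4 libraries, against 3.62, 3.85, 3.92, 3.65 and 4.02 in PBS libraries, so that all IL-4 libraries were lower, by 0.91 ± 0.16 (limma, adjusted p = 0.00145) and by 0.93 ± 0.22 without PBS 1, 2 and 3.

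Of 20 tested genes known as STAT6 targets or markers of alternative activation, 2 rose and 1 fell with all libraries (8.22% and 9.63% of all genes), with a median difference of −0.20. Besides Retnla these were the cell adhesion gene Cdh1, which rose by 0.69 but was not retained, and the transglutaminase Tgm2, which fell by 1.75 and was not retained (limma, adjusted p = 0.0735 without PBS 1, 2 and 3). The macrophage genes Arg1 and Chil3, markers of alternative activation in mice, had differences of −0.66 (limma, adjusted p = 0.221) and −0.37 (limma, adjusted p = 0.846). None of 11 tested genes of eosinophils and mast cells passed, with a median difference of −0.27.

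**Figure D3:**
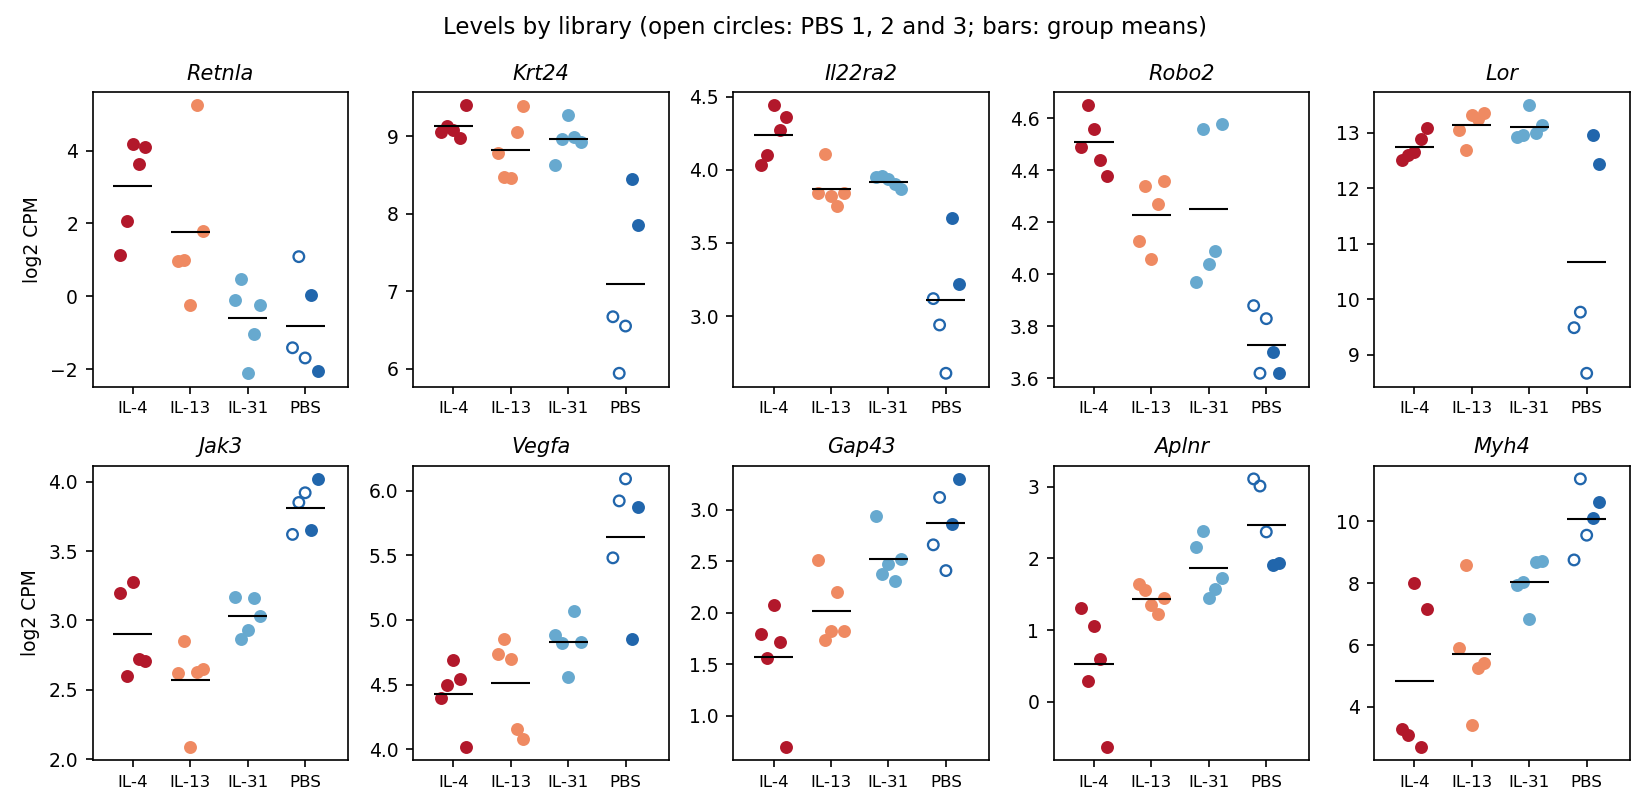
Log2 CPM of 10 genes in every library, by group from IL-4 at the left to PBS at the right; bars are group means and open circles PBS libraries 1, 2 and 3. The group mean of Retnla is highest in IL-4 and next in IL-13 libraries, Lor is low in the 3 open circles only, and Jak3, Vegfa, Gap43, Aplnr and Myh4 are lower in every IL-4 library than in any PBS library.

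The largest falls were in skeletal muscle genes. Of 74 tested genes of 5 muscle lists, none was higher and 67 were lower in IL-4 ears, against 9.63% of all genes, and 45 were retained, against 3.78%. Their median difference was −2.23, and −2.07 without PBS 1, 2 and 3, against −0.02 and −0.005 over all genes. In bulk tissue, fewer cells of a type and less RNA per cell cannot be told apart. Myh4, the myosin heavy chain of the fastest fibres, was at 3.28, 3.08, 8.02, 2.71 and 7.17 log2 CPM in IL-4 libraries, against 8.75, 11.37, 9.55, 10.10 and 10.62 in PBS libraries. The groups did not overlap, IL-4 libraries 3 and 5 came nearest to the PBS range, and the difference was −5.22 ± 0.96 (limma, adjusted p = 0.00195) with all libraries and −5.50 ± 1.31 without PBS 1, 2 and 3.

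All 16 genes of the fast sarcomere fell and 15 of them were retained, including Acta1, the skeletal muscle actin (−2.94, and −2.92 without). All 16 genes of muscle energy supply fell and 11 were retained, among them Ckm, the muscle creatine kinase, at 3.80 to 7.25 log2 CPM in IL-4 libraries and 8.48 to 10.24 in PBS libraries (−3.27, and −3.17 without). Of 16 calcium handling genes 15 fell and 13 were retained, led by the calcium buffer Pvalb (−4.67, and −4.73 without). Myoz1, a protein of the sarcomere's Z-disc, fell by 3.42 and the kinase Mylk4 by 3.74, both retained. Of 12 genes of slow fibres 9 fell and 2 were retained, and all 12 had the same sign in both fits, with medians of −1.88 with all libraries and −1.69 without PBS 1, 2 and 3. Of 14 genes of the neuromuscular junction and of myogenic regulation 11 fell and 4 were retained, with all 14 of the same sign in both fits and medians of −1.54 and −1.44. The muscle genes together made up 0.162 to 0.733% of all CPM in IL-4 libraries and 1.38 to 3.86% in PBS libraries. Their share was 0.262 to 0.825% in IL-13 libraries, near that of the IL-4 libraries, and 0.436 to 1.74% in IL-31 libraries.

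Other genes moved with the muscle lists across libraries. Over all genes 444 (2.70%) were muscle list members or had a correlation of at least 0.7 with the muscle score over the 20 libraries once group means were removed. They made up 384 of the 1585 falls, 220 of the 622 retained falls and none of the rises. The rule counts positive correlations only, so rises that went against the muscle score across libraries were not counted. Of the largest retained falls that did not meet this rule, several are also known from striated muscle: Dhrs7c of the sarcoplasmic reticulum (−3.30), the potassium channel Kcna7 (−2.95), the ankyrin repeat proteins Asb11 (−2.92) and Asb15 (−2.62), and Smco1 (−2.43). Asb15 was at the table's lowest value, 0 reads, in 3 of 5 IL-4 libraries, so its difference depends on the offset added before the log. IL-4 libraries 1, 5 and 2 were at that value for Dhrs7c, Kcna7 and Asb11, in that order. Actc1, the cardiac actin and another gene of striated muscle, fell by 2.03. In a fit with the muscle score as a covariate, which differs between the groups without overlap, only 2 genes passed: Retnla, higher (6.73, limma, adjusted p = 0.0388), and Fes, a tyrosine kinase of myeloid cells named after its values were seen, lower (−1.12, limma, adjusted p = 0.0388).

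Genes of oxidative phosphorylation fell by a smaller amount. Of 20 nuclear genes for respiratory chain subunits 16 were lower with all libraries and 12 were retained, while 9.63% of all genes fell and 3.78% were retained falls. The list's median difference was −0.43 with all libraries, against −0.02 over all genes, and −0.40 without PBS 1, 2 and 3. Cycs, the electron carrier cytochrome c, was at 5.64, 5.90, 6.04, 5.74 and 5.63 log2 CPM in IL-4 libraries and 6.42, 6.70, 6.27, 6.30 and 6.91 in PBS libraries, which did not overlap. Its difference was −0.73 ± 0.15, and −0.82 without, while Sdhb, of succinate dehydrogenase, fell by 0.59 (0.54 without). Of the 13 genes encoded in the mitochondrion 11 were lower with all libraries and none was retained. All 13 kept their sign, with a list median of −0.64 with all libraries and −0.40 without PBS 1, 2 and 3, where the nuclear list had the same median. mt-Nd4, for example, averaged 10.56 ± 0.10 in IL-4 libraries and 11.32 ± 0.33 in PBS libraries, with PBS 1, 2 and 3 at 11.24, 11.69 and 11.62 and PBS 4 and 5 at 10.95 and 11.09. Of the nuclear list, 3 genes met the muscle rule, and none of the mitochondrial genes did. Muscle is rich in mitochondria, and the part of muscle content in these falls was not tested.

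Part of the macrophage and complement genes were lower in IL-4 ears. Of 23 monocyte and macrophage genes, 11 fell with all libraries, 9 without PBS 1, 2 and 3, and 6 in both, with medians of −0.96 and −1.34. Over all genes 9.63% fell with all libraries, 4.66% without those 3 and 3.78% in both. Lyz2, the lysozyme of myeloid cells, was at 6.60, 6.78, 6.74, 6.63 and 6.17 log2 CPM in IL-4 libraries, against 7.24, 8.02, 6.62, 7.76 and 8.67 in PBS libraries, where PBS 3 alone lay within the IL-4 range. It fell by 1.08 ± 0.27 (limma, adjusted p = 0.0114) and by 1.63 ± 0.27 without PBS 1, 2 and 3 (limma, adjusted p = 0.00701). The other 5 were Cd68, Fcgr3 and the complement genes C1qa, which fell by 1.00 (1.32 without), C1qb and C1qc. Of 16 complement genes 10 fell and 6 were retained, including Cfb, factor B of the alternative pathway, by 1.41 (2.05 without). The macrophage score was −0.79 to 0.10 in IL-4 libraries and 0.14 to 0.51 in PBS libraries 1 to 4, with PBS library 5 highest at 1.59. With PBS library 5 left out and the other 4 kept, Lyz2, C1qa and Cfb still passed.

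In 3 further immune lists most genes did not pass, while 9.63% of all genes fell and 3.78% were retained falls. Of 18 genes of dendritic and Langerhans cells 3 fell, 1 rose and 2 falls were retained, Cd40 and Irf8. Of 14 genes of MHC class I and antigen processing 5 fell and 2 were retained, Psmb8 and Psmb9, and of 18 inflammatory cytokines and chemokines 3 fell and 1 was retained, Ccl2. Cd40, a co-stimulatory receptor, was at −0.10, 0.92, 0.44, 0.60 and −0.63 log2 CPM in IL-4 libraries and 1.42, 2.10, 2.28, 1.00 and 2.47 in PBS libraries, lower in every IL-4 library by a mean of 1.61 ± 0.30 (1.49 without). Irf8, a transcription factor of monocytes and dendritic cells, fell by 1.32 (1.12 without), and the immunoproteasome subunits Psmb8 and Psmb9 by 0.77 and 0.85 (0.79 and 1.13 without). The chemokine Ccl2, which attracts monocytes, was at 1.07, 0.40, 0.75, 1.01 and −1.05 in IL-4 libraries and 1.83, 1.51, 2.35, 1.80 and 4.51 in PBS libraries. Its fall of 1.97 ± 0.55 did not pass when IL-4 library 5 was left out. The phospholipase Pla1a fell by 2.03 and the interferon-inducible Ifi211, which has close paralogs, by 2.01, both retained. Aif1, a macrophage protein also called IBA1 and named after its values were seen, fell by 1.76 ± 0.38 (1.90 without) with no overlap. Of the 28 interferon-stimulated genes 12 fell with all libraries (9.63% of all genes did) and 1 was retained, Ifi27l2a (−1.42, and −1.20 without). All 28 had the same sign in both fits, with list medians of −1.44 with all libraries and −1.39 without PBS 1, 2 and 3. Of 17 neutrophil genes 1 fell and none was retained, although the list's median difference was −2.60, and −1.69 without PBS 1, 2 and 3, with scores that overlapped between the groups. The same 4 libraries, IL-4 4 and PBS 1, 3 and 5, had the highest interferon scores, at 0.79 for IL-4 4 and 1.12, 1.65 and 2.03 for PBS 1, 3 and 5, with the other IL-4 libraries at −0.96 to −0.85 and PBS 2 and 4 at −0.10 and −0.19.

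Vessel genes fell in smaller number. Of 20 angiogenic and hypoxia response genes 6 were lower (9.63% of all genes were), with a median difference of −0.48. Retained were 3 of them, while 3.78% of all genes were retained falls. Vegfa, the main growth factor of vessels, was at 4.40, 4.50, 4.69, 4.54 and 4.02 log2 CPM in IL-4 libraries, against 5.48, 5.92, 6.09, 4.85 and 5.87 in PBS libraries. No library overlapped, PBS 4 being nearest to the IL-4 range, and the difference was −1.21 ± 0.20 (limma, adjusted p = 0.00133), or −0.93 ± 0.25 without PBS 1, 2 and 3 (limma, adjusted p = 0.0361). Aplnr, the apelin receptor of sprouting vessels, fell by 1.94 (1.40 without), and Nrp1, a co-receptor of VEGF and semaphorins, by 0.99 (1.17 without). Of 20 endothelial genes 5 fell and 2 were retained, the angiopoietin receptor Tek (−1.01, and −1.23 without) and the lymphatic marker Pdpn. Pdpn lost its call without IL-4 library 5, and PBS library 5 stood at 6.07 log2 CPM with the other PBS libraries at 3.59 to 3.89. Esm1, a secreted product of endothelial tip cells, fell by 2.08 ± 0.33 (2.01 without) with no overlap. Gpihbp1, of capillary endothelium and named after its values were seen, fell by 1.64 (1.70 without).

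In the lists of sensory axons and of neurotrophic and guidance factors 1 gene each was retained. Of 6 tested transcripts of sensory axons 2 fell (9.63% of all genes did), Gap43 and Uchl1, and Gap43 was retained (3.78% of all genes were retained falls). Gap43, a protein of growing axons, was at 1.79, 1.56, 2.08, 1.72 and 0.70 log2 CPM in IL-4 libraries, against 2.66, 3.12, 2.41, 2.86 and 3.30 in PBS libraries. Every IL-4 library was lower, by a mean of 1.30 ± 0.24 (limma, adjusted p = 0.00185), and by 1.51 ± 0.31 without PBS 1, 2 and 3 (limma, adjusted p = 0.0147). Th, the tyrosine hydroxylase of sympathetic nerves and named after its values were seen, was at −2.68, −2.68, −2.09, −1.43 and −2.68 in IL-4 libraries and 1.09, 0.96, −2.68, 0.27 and 1.84 in PBS libraries. It was retained (−2.61 ± 0.62, and −3.37 without), but 3 IL-4 libraries and PBS 3 had 0 reads. Of 24 neurotrophic and guidance genes 3 rose and 1 fell, near the 8.22% and 9.63% of all genes. Retained was 1 rise (1.13% of all genes): Robo2, a receptor for Slit guidance proteins. Robo2 was at 4.49, 4.65, 4.56, 4.44 and 4.38 log2 CPM in IL-4 libraries, against 3.88, 3.62, 3.83, 3.70 and 3.62 in PBS libraries, a separation of 0.77 ± 0.12 that was 0.84 ± 0.16 without PBS 1, 2 and 3 (limma, adjusted p = 0.00107 and 0.013).

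Other retained changes fell outside these groups. The clock output factor Hlf rose by 0.72 (0.56 without) and Rora, a nuclear receptor of the clock and of type 2 innate lymphoid cells, by 0.55 (0.50 without). The endothelin receptor Ednrb of melanocytes fell by 1.18 (1.76 without), but was lost when PBS library 2 was left out. The histone gene Hist1h4h, a member of a multigene family with near-identical copies, fell by 2.10 and the chromatin reader Dpf3 by 2.04. Lrg1, a leucine-rich glycoprotein induced in inflammation and named after its values were seen, fell by 1.67 (1.66 without). Of 20 cell cycle genes, 14 cartilage genes and 5 red blood cell genes none passed with all libraries. Of 20 heat shock and chaperone genes 4 rose and of 22 cytosolic ribosomal protein genes 2 rose, against 8.22% of all genes, and none of either list was retained, against 1.13%.

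**Figure D4:**
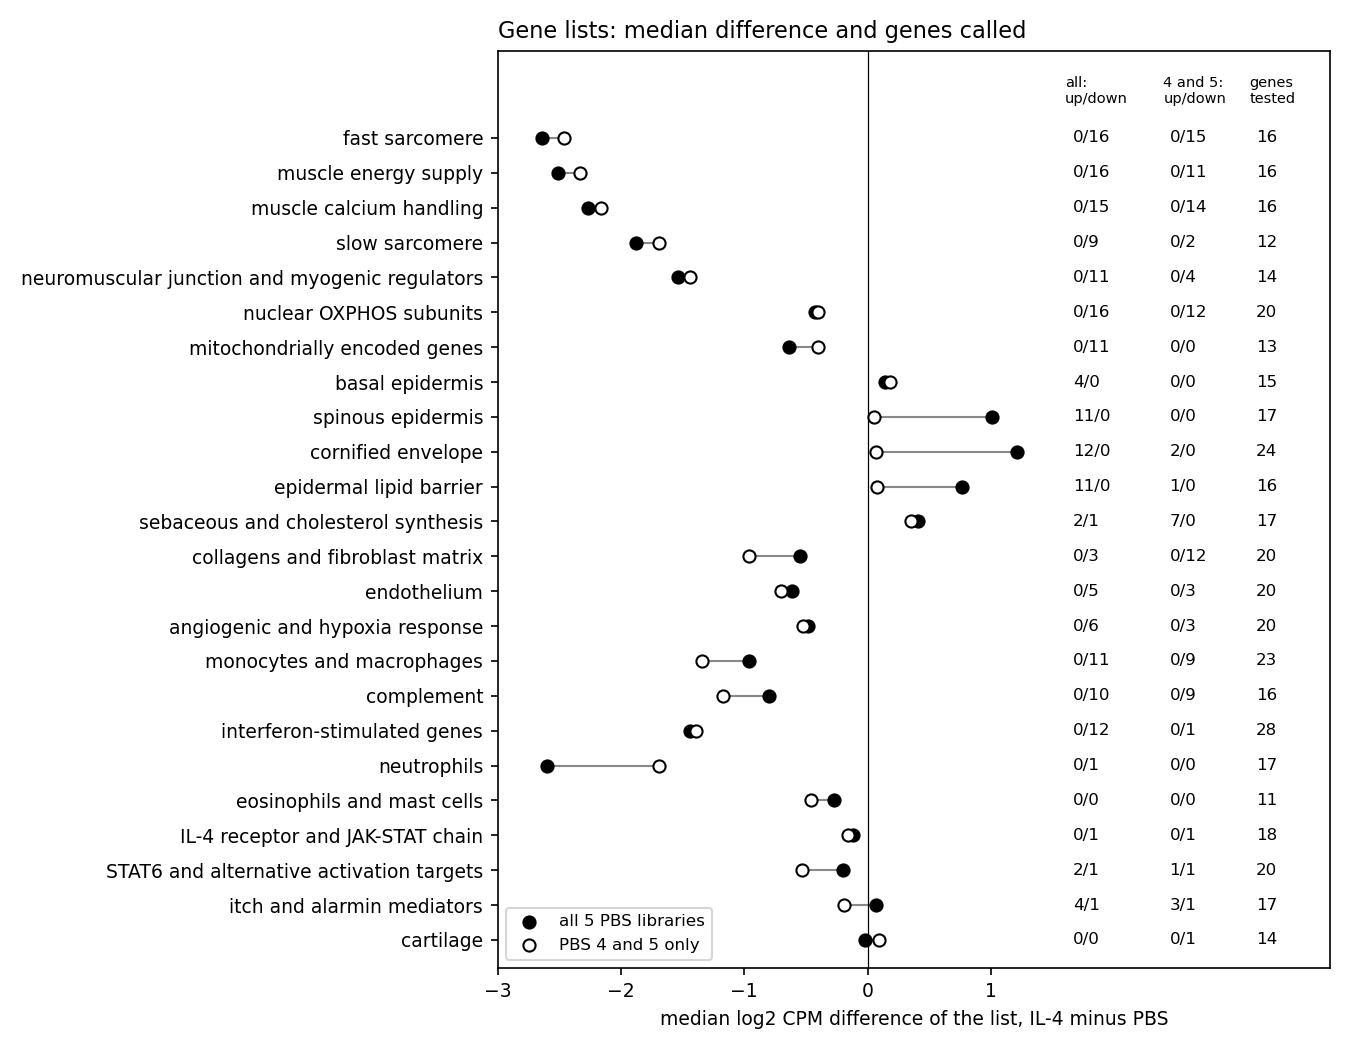
Median difference in log2 CPM, IL-4 minus PBS, of 24 gene lists with all 5 PBS libraries (filled) and with PBS 4 and 5 only (open); the columns at the right give genes higher and lower in each fit and the number tested. The 3 lists of the differentiated epidermis move to near 0 without PBS 1, 2 and 3, the muscle lists keep their place, and the collagen list lies further below 0.

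Differentiation genes of the epidermis rose with all libraries (8.22% of all genes did) and were for the most part not retained. Over all genes 2.63% rose without PBS 1, 2 and 3, and 1.13% were retained rises. Low levels of cornified envelope genes are what set PBS 1, 2 and 3 apart, so the smaller differences without them follow from which libraries were left out and are given as a description. Of 17 spinous layer genes 11 rose with all libraries and none without PBS 1, 2 and 3, with list medians of 1.01 and 0.05. Of 24 cornified envelope genes 12 rose with all libraries and 2 without, with medians of 1.21 and 0.07, Krt24 being the 1 in both. Of 16 genes of the epidermal lipid barrier 11 rose with all libraries and 1 without, with medians of 0.77 and 0.08. Lor (loricrin), which makes up most of the cornified envelope, shows the pattern: it was at 12.50, 12.60, 12.65, 12.88 and 13.09 log2 CPM in IL-4 libraries, against 9.49, 9.77, 8.67, 12.96 and 12.43 in PBS libraries. PBS 1, 2 and 3 were far below all IL-4 libraries and PBS 4 and 5 near them, so that the difference was 2.08 ± 0.57 with all libraries (limma, adjusted p = 0.0164) and 0.05 ± 0.23 without those 3 (limma, adjusted p = 0.919). Krt10, the keratin of the spinous layer, had a difference of 1.66 with all libraries and −0.03 without, and Dsg1a, a desmosomal cadherin, 1.01 and 0.18. With 1 library left out Krt10 lost its call in 7 and Dsg1a in 3 of the 10 fits.

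Predicted genes aside, the 5 largest rises that were not retained were those of Slurp2 (2.42, and 0.56 without PBS 1, 2 and 3), Cldn23, a tight junction protein (2.18 and 0.41), Lor, Adnp, a homeodomain protein (2.05 and 0.10), and Kprp, a keratinocyte proline-rich protein (2.02 and 0.33). For all 5 PBS 1, 2 and 3 were the lowest of the 10 libraries. Leaving out PBS 2 alone ended the call of Lor, and leaving out any of 7 libraries ended that of Adnp. The 5 largest falls that were not retained were those of the hair follicle keratins Krt71 (−4.09, and −3.95 without PBS 1, 2 and 3, limma, adjusted p = 0.122), Krt25 (−3.60 and −3.11) and Krt35 (−3.44 and −2.59), the Fc receptor Fcgr1 (−3.46 and −3.69) and the myeloid gene Ms4a4c (−3.23 and −3.18). Krt71 was at −0.88, −1.52, 0.94, −2.68 and −2.68 log2 CPM in IL-4 libraries, against 1.36, 4.48, 2.61, −1.60 and 6.77 in PBS libraries, with PBS 4 inside the IL-4 range. Its call and that of Krt35 ended without PBS 2, that of Krt35 also without IL-4 5, and those of Krt25 and Ms4a4c in 6 and 7 of the 10 fits that left out 1 library.

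Leaving out PBS 1, 2 and 3 also brought in 392 genes that had not passed, 247 higher and 145 lower. Of 20 collagen and fibroblast matrix genes 3 fell with all libraries (9.63% of all genes did) and 12 fell without PBS 1, 2 and 3 (4.66%), with list medians of −0.55 and −0.96. Retained were 2 (3.78% of all genes were retained falls), the lysyl oxidase Loxl1 (−1.02, and −1.12 without) and Col5a1 (−0.63, and −0.99 without). Col5a1 lost its call in 7 of the 10 fits that left out 1 library. Col1a1, the main collagen of the dermis, was at 10.10, 9.62, 10.25, 9.67 and 10.20 log2 CPM in IL-4 libraries and 10.06, 10.73, 10.35, 10.77 and 11.46 in PBS libraries, and its difference was −0.71 ± 0.25 with all libraries (limma, adjusted p = 0.0545) and −1.15 ± 0.29 without the 3 (limma, adjusted p = 0.0316). The collagen score was −0.51 to 0.12 in IL-4 libraries and −0.16 to 0.37 in PBS libraries 1 to 4, with PBS library 5 highest at 0.97.

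Of 17 genes of sebaceous lipids and cholesterol synthesis 2 rose and 1 fell with all libraries (8.22% and 9.63% of all genes), and 7 rose without PBS 1, 2 and 3 (2.63%). Retained was 1 rise (1.13% of all genes): Hmgcs1, an enzyme early in sterol synthesis (0.56, and 0.67 without). Hmgcs1 was at 9.54, 9.15, 9.32, 9.21 and 9.23 log2 CPM in IL-4 libraries and 8.53, 8.29, 9.59, 8.60 and 8.64 in PBS libraries, with PBS 3 above every IL-4 library and the other 4 below. Its call was lost without IL-4 1, PBS 1 or PBS 2. The sebocyte genes Soat1 (0.53, and 1.20 without) and Elovl3 (0.61, and 1.35 without) and the sterol demethylase Cyp51 (0.55, and 0.86 without) passed without PBS 1, 2 and 3 only. The 3 largest differences of this kind were those of the chemokine Cxcl5 (−2.78 with all libraries and −4.28 without), Ms4a10 (1.37 and 2.35) and the lectin Cd209f (−1.36 and −2.17).

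No gene differed between IL-4 and IL-13 ears (limma, 0% called, smallest adjusted p = 0.997, with 664 genes at an unadjusted p under 0.05) or between IL-4 and IL-31 ears (limma, 0% called, smallest adjusted p = 0.142, with 1743 genes at an unadjusted p under 0.05). The PBS libraries entered these comparisons through the shared estimate of the spread, and with only the 2 groups compared 0 genes passed against IL-13 and 3 against IL-31. Against IL-31 the count was 304 when IL-31 library 3 was left out and 0 in the other leave-out fits. Retnla averaged 3.02 ± 1.35 log2 CPM in IL-4 libraries, 1.76 ± 2.08 in IL-13 libraries and −0.60 ± 1.00 in IL-31 libraries, and its difference was 1.26 from IL-13 (limma, adjusted p = 0.997) and 3.62 ± 0.86 from IL-31 (limma, adjusted p = 0.174). Gap43 was 0.95 ± 0.24 lower in IL-4 than in IL-31 ears (limma, adjusted p = 0.174) and 0.45 lower than in IL-13 ears (limma, adjusted p = 0.997). The retained rises as a group lay at 0.22 to 0.29 (mean centred log2 CPM) in IL-4 libraries, 0.06 to 0.19 in IL-13 libraries, −0.08 to 0.06 in IL-31 libraries and −0.51 to −0.12 in PBS libraries. The retained falls as a group lay at −0.89 to −0.25 in IL-4 libraries and −0.69 to −0.15 in IL-13 libraries. In IL-31 and PBS libraries they lay at −0.25 to 0.49 and at 0.37 to 1.085. Since the retained genes were chosen by the difference between IL-4 and PBS libraries, these orders are a description. The IL-13 and IL-31 values entered the choice only through the filter on low values and the shared estimate of the spread.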

How the data were processed

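Per the labels' protocols, RNA of ear pinnae was taken with a Qiagen RNeasy kit and made into libraries with NEBNext Ultra II reagents. The deposited values are log2 CPM, in 1 table that covers 16669 genes. The submitters' processing notes name GRCm38 and edgeR, without a version; of the aligner, counter and annotation the sources used here say nothing. Every library's lowest value was −2.684, which corresponds to 0.1556 CPM added before the log and shrinks differences of low genes. Effective depth came from the spacing of low values, 79.1 to 86.6% of which were whole reads within 0.02 reads. Depth limits low genes, and floors and 3-read levels cover counting error only.

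A gene was tested if 5 or more of the 20 libraries reached log2 CPM 0 (16461 tested, 208 removed). limma 3.58.1 in R 4.3.3 (trended variance, Benjamini-Hochberg adjustment over all genes tested) fitted the 4 groups together, so that they shared 1 estimate of the spread, and again without PBS 1, 2 and 3. The test was also run on simulated data, in which genes varied independently and with the same spread in every group. These libraries differ from that setting, so the simulation cannot vouch for the calls. Identifiers were matched to GENCODE M21 (16644 of 16669 matched). List scores are means of log2 CPM centred per gene and carry no test. Alternatives were other filters, offset, normalization, groups, covariates and weights, a replicate block and leaving out each library. Tables were handled with Python 3.11.15, numpy 2.4.6 and pandas 2.3.3.

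The genes named were the 12 largest retained rises, the 5 largest retained muscle falls and the 12 largest other retained falls, all without overlap between the groups, the 5 largest rises and falls not retained, the 3 largest found without PBS 1, 2 and 3 only, members of the gene lists, and genes of the IL-4 pathway. The members, the lists and the rule were chosen with earlier results of these data known. A gene of the lists is not reported here and does not enter their counts and scores. The sources used here name no pairs, and the deviations of same-numbered IL-4 and PBS libraries showed no clear link. The numbers were therefore not taken as pairs, though a shared batch cannot be told from these values.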

Additional observations from a re-analysis of the deposited data

Results flagged for a closer look

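A library was singled out where its gap to the nearest other library of its group of 5 exceeded 0.71 of the group's range (Dixon's criterion, which chance meets in about 1 group in 20), over 312 groups of values. This picked out 20 cases, near the number that such a rate gives over 312 groups. Their causes were not tested.

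IL-4 library 4 was highest of the IL-4 libraries in the scores of neutrophils (gap 0.882 of the range), interferon-stimulated genes (0.934), MHC class I genes (0.748) and inflammatory cytokines (0.755), lowest in neurotrophic and guidance factors (0.719), and highest for Irf8 (0.766) and Retnlg (0.796). IL-4 library 1 was lowest for Jak1 (0.818), Krt10 (0.849) and Calm5 (0.74) and highest for Ifi27l2a (0.762) and Lrg1 (0.818), and IL-4 library 5 was highest for Enpp6 (0.786).

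PBS library 5 was highest of the PBS libraries in the scores of macrophages (0.746) and of the IL-4 receptor and JAK-STAT chain (0.772), and for Ccl2 (0.72) and Pdpn (0.877). PBS library 3 was highest in the score of sebaceous and cholesterol synthesis (0.796) and for Hmgcs1 (0.732), and lowest for C1qa (0.732).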

How the results depend on the processing

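With PBS 1, 2 and 3 left out 1200 genes passed, against 2938 with all libraries; the fit of IL-4 and PBS libraries only gave 1269 and the muscle score as a covariate 2. Leaving out 1 library gave 1885 (without PBS 2) to 3553 (without PBS 5), with 1956 without IL-4 5. The other filters, offset, normalizations, library weights and the replicate block gave 2865 to 2958. Under quantile normalization 59.5% of the calls were rises (1758 higher and 1199 lower), against 46.1% in the reported fit; it moved the median difference of all genes to 0.052.

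The 808 retained genes were 415 with the replicate block, 229 with the IL-4 and PBS libraries only, 0 with the muscle score and 0 with library weights, under which no gene passed without PBS 1, 2 and 3. The cause was not tested. Leaving out 1 library gave 0 (without PBS 5, which leaves PBS 4 alone, assumed to vary like the other groups) to 1016 (without PBS 4), with 463 without IL-4 4 and 448 without IL-4 5.

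The sources used here name no pairs, and the replicate numbers were not taken as a pairing. Same-numbered IL-4 and PBS libraries correlated in their deviations by 0.13, 0.078, −0.161, −0.236 and 0.047. Differently numbered ones ran from −0.365 to 0.359, so these values cannot show whether same-numbered libraries shared a batch. Against IL-13 no setting run gave a call, and the replicate block gave 0 there. Against IL-31, 2 genes passed with the replicate block (Rhoc and Asb15) and 3 with only those 2 groups (Ehd4, Zcchc7 and Gapdh), all named after their values were seen, and leaving out 1 library gave 0 to 304.

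With the muscle score as a covariate the differences of Actn2 (0.18), Csrp3 (0.124), Mybpc1 (0.406), Uchl1 (0.159), Ncam1 (0.141), Pdk4 (0.536) and Acta1 (0.028) turned positive, none passing (limma, adjusted p from 0.394 to 0.978). Actn2, Csrp3, Mybpc1 and Acta1 are members of the muscle lists that make up the score, so the sign of their adjusted differences carries no information. Without PBS 1, 2 and 3 that of Krt10 turned to −0.026. Psmb9, Pdpn, Ednrb and Hmgcs1 lost their calls under quantile normalization. Depth limits genes near 0 reads, such as Th, Asb15, Asb11, Pla1a, Dhrs7c and Kcna7, whose lowest IL-4 value was −2.68 log2 CPM, the lowest of the table. Esm1 and Dpf3 were also low, with IL-4 means of −1.20 and −1.41.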
